A study of Mus musculus with 6 samples.

Results

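Open chromatin was examined at the nuclear genes of the mitochondrial respiratory chain in 2 tissues of the mouse embryo, the atria (HT) and the posterior second heart field (pSHF), which holds progenitors behind the heart tube. The genes were taken by symbol: every protein-coding symbol beginning with Nduf, Sdha, Sdhb, Sdhc, Sdhd, Uqcr, Cox4 to Cox8 or Atp5. The rule found 100 of the 21631 protein-coding genes on the 19 autosomes and X. They are 37 complex I subunits, 4 complex II subunits, 8 complex III subunits, 16 complex IV subunits, 3 heart isoforms of complex IV subunits, 17 ATP synthase subunits, 2 copies named after Ndufb4, and 13 assembly factors (8 for complex I, 4 for complex II and Cox7a2l). A peak was given to the protein-coding gene whose body lay nearest to its summit, within 100 kb. This gave 140 of 49267 HT peaks and 136 of 44018 pSHF peaks.

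Both tissues came from wild-type CD1 embryos, an outbred strain, at embryonic day 10. The assay was ATAC-seq, in which the Tn5 transposase cuts accessible DNA and leaves sequencing adapters in it. Each tissue was microdissected and pooled over embryos, has 3 samples, and is represented here by 1 list of peaks. No value per replicate was analysed here, so none of the differences below has a test or an SD, and replicate error is unknown. The pieces were bulk tissue, in which fewer cells with an open site and fewer cuts per open site cannot be told apart.

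The respiratory chain passes electrons from NADH (complex I) or succinate (complex II) through complex III to oxygen at complex IV, and ATP synthase uses the proton gradient that complexes I, III and IV build. Most subunits are encoded in the nucleus and needed in nearly every cell. A few complex IV subunits exist as pairs, with a ubiquitous form and a form used in adult heart and skeletal muscle.

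The promoters of the heart isoforms Cox7a1 and Cox8b differed from those of their ubiquitous partners in base composition and in short motifs. They are printed because the comparison of isoforms rests on these sites. Each is 250 bases before to 50 after the start site on the gene's own strand, from the RefSeq table of GRCm38.p6. The sites are Cox7a1 at chr7:30183921-30184220 (plus strand) with its partner Cox7a2 at chr9:79759804-79760103 (minus), and Cox8b at chr7:140900397-140900696 (minus) with its partner Cox8a at chr19:7217567-7217866 (minus). Cox6a1, the partner of Cox6a2, lies at chr5:115348909-115349208 (minus), and Cox6a2 itself is not printed. Atp5k at chr5:108434350-108434649 (minus) is added as the member whose start-site peak differed most between the tissues. Capitals mark every match, on either strand, to 7 motifs searched: NRF1 (CGCANGCG), ETS (CCGGAAGT), ERR (AAGGTCA), YY1 (AANATGGCG), SP1 (GGGCGG), CREB (TGACGTCA) and MEF2.
Cox7a1: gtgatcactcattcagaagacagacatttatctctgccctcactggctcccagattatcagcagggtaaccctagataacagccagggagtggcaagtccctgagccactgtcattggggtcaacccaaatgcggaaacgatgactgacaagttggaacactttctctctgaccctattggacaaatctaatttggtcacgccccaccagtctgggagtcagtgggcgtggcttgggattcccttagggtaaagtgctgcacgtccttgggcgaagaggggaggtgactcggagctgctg
Cox7a2: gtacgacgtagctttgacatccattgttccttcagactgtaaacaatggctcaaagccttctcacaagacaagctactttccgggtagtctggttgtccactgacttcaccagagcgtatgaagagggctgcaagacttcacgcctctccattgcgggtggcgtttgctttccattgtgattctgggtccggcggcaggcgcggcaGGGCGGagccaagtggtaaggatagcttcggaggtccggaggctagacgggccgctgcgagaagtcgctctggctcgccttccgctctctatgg
Cox8b: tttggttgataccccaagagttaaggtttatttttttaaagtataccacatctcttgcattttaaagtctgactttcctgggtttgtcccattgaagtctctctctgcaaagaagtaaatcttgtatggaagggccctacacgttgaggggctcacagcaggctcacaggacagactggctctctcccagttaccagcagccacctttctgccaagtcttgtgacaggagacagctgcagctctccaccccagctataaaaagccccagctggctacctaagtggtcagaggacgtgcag
Cox8a: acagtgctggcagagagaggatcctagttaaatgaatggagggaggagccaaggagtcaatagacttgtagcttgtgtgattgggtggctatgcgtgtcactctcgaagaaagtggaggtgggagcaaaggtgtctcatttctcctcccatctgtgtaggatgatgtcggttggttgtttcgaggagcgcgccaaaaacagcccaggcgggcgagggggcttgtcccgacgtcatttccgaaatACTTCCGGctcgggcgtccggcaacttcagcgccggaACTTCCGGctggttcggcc
Cox6a1: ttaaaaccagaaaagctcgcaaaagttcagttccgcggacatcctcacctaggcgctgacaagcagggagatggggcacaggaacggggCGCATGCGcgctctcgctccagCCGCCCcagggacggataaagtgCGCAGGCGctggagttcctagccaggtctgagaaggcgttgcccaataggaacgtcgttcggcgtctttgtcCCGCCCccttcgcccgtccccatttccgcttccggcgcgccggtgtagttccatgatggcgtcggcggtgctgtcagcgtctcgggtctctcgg
Atp5k: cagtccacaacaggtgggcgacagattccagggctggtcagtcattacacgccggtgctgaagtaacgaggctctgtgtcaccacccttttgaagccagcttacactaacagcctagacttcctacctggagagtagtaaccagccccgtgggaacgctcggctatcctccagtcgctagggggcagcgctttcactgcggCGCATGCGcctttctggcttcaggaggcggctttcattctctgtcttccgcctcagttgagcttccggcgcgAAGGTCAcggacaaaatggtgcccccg

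The Cox7a1 and Cox8b windows held none of the 7 motifs. The same was true of other member windows, those of Cox6b1, Cox7b and Cox7c among them. An empty window thus does not mark a heart isoform. Cox7a2 held 1 SP1 match, 44 bases before the start site. Cox8a held 2 ETS matches, Cox6a1 held 2 NRF1 and 2 SP1 matches, and Atp5k held 1 NRF1 match 49 bases before the start site and 1 ERR match 23 bases after it. The ratio of observed to expected CpG was 0.333 for Cox7a1 and 0.115 for Cox8b, against 0.833 for Cox7a2, 0.842 for Cox8a and 1.08 for Cox6a1. Both heart isoform windows were thus poorer in CpG than the windows of the 3 partners.

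The strength of a peak is the fold enrichment that the authors' peak caller gave over its background, the median of which was 5.49 in the HT list and 4.85 in the pSHF list. Read totals are not in the lists, so depth was not compared directly. The background recovered from the peak values was 0.824 reads in HT against 0.857 in pSHF. Over called peaks alone, the median was 12 reads at an HT summit against 11 at a pSHF summit. Peak counts at marker genes followed the labels, clearly for cardiomyocyte genes and less evenly for pSHF markers. All 7 cardiomyocyte genes had HT peaks (22 in all). Of these genes, 5 (Myh6, Tnni3, Ttn, Nppa and Nkx2-5) had no pSHF peak, and the 7 had 2 pSHF peaks in all. The 5 pSHF markers had 17 HT peaks and 37 pSHF peaks, from 2 to 5 per gene in HT and from 4 to 14 in pSHF. Most of this gap lay at Gas1 (3 in HT, 14 in pSHF) and Foxf1 (2 in HT, 8 in pSHF). Isl1 (5 in HT, 6 in pSHF), Osr1 (3 in HT, 4 in pSHF) and Aldh1a2 (4 in HT, 5 in pSHF) differed little. Of their 4 gene-end peaks that could be compared between the lists, 3 had the higher fold in HT, and Osr1 had the higher fold in pSHF. Other cell types moved as well: 4 erythroid genes had 14 HT and 3 pSHF peaks, with none in pSHF at Hbb-bh1 and Gata1. The 4 endothelial genes had 28 HT and 12 pSHF peaks, and the 4 endoderm genes 18 HT and 25 pSHF peaks. The part of cell composition in the results below was not tested.

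Most respiratory chain genes had a peak at a start or end in both tissues, as most ribosomal protein genes did. Counting each peak for its nearest gene alone, 74 members had a summit within 1 kb of a gene end in HT and 76 did in pSHF, against 53.3% of all protein-coding genes in HT and 52.9% in pSHF. The shares of 77 cytosolic ribosomal protein genes were 85.7% in HT and 83.1% in pSHF, above those of the members. Many of these genes have a close neighbour: 55 of the 100 (55%) had an end of another protein-coding gene, in either orientation, within 1 kb, against 36.4% of ribosomal protein genes and 25.1% of all genes. A summit there counts for the nearer gene alone. Counting any summit within 1 kb of a gene end, whichever gene was nearer, 89 members had one in HT and 89 in pSHF, against 59.2% of all genes in HT and 58.5% in pSHF, and 97.4% of ribosomal protein genes in HT and 96.1% in pSHF. With a RefSeq start site counted as well, 93 members had a peak in HT and the same 93 had one in pSHF. In each of the 93, the strongest such peak overlapped a peak of the other list. These last 2 counts were not made for all genes or for ribosomal protein genes. Sharing is common there, since 13.7% of all gene-end peaks in HT and 11.3% in pSHF were restricted.

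The members with no such peak in either list included Cox6a2, Cox7b2, Cox8b, Cox8c, Ndufb4b and Ndufb4c. Cox6a2 and Cox8b are heart isoforms, Cox7b2 and Cox8c are testis forms, and Ndufb4b and Ndufb4c are short copies named after Ndufb4.

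By nearest gene alone, 19 members had no gene-end peak in either list. Besides members with no peak at a start or end at all, they were Atp5d, Atp5g3, Atp5j, Cox5a, Cox7a2, Ndufa11, Ndufaf8, Ndufb9, Ndufs6, Sdhaf2, Sdhd and Uqcr10. In 8 of these the peak was nearer to a neighbour, as for Sdhd, the membrane anchor of complex II, whose peak of fold 13.3 in HT and 10.1 in pSHF was nearer to Timm8b. The peak of Atp5j, the coupling factor subunit of ATP synthase, was nearer to the divergent gene Gabpa, which encodes an ETS factor, with fold 10.9 in HT and 7.71 in pSHF. In the other 4 (Atp5d, Atp5g3, Cox5a and Cox7a2) the peak lay at a start site inside the gene body. Another 5 members had a gene-end peak of their own only in HT (Cox4i1, Cox6b2, Ndufa2, Ndufa8 and Ndufaf5) and 7 only in pSHF (Atp5h, Atp5md, Atp5pb, Ndufa4, Ndufb11, Ndufb3 and Sdha). All 12 had a shared peak at the site in both lists, whose summit in the other list lay nearer to the neighbour. Sdha, the flavoprotein that oxidises succinate, shows this: the peak had fold 13.3 in HT, where Ccdc127 was nearer, and 11.0 in pSHF.

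The gene-end peaks of the chain were strong in both lists. The strongest gene-end peak of a member had a median fold of 11.7 in HT (quartiles 8.47 to 13.5, n = 74 genes) and 8.33 in pSHF (6.67 to 9.94, n = 76 genes). Over all genes with such a peak the medians were 9.20 in HT (6.43 to 11.9) and 7.28 in pSHF (5.50 to 9.06), and over ribosomal protein genes 10.8 in HT and 8.66 in pSHF. The members' median was thus above that of all genes in both tissues, above that of ribosomal protein genes in HT and below it in pSHF. The median width of these peaks was 563 bp in HT and 552 bp in pSHF, against 544 bp in HT and 545 bp in pSHF over all genes. Their summits sat close to the start site, at a median distance of 63 bp in HT (72 peaks with a listed start site) and 63.5 bp in pSHF (78 peaks).

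**Figure D1:**
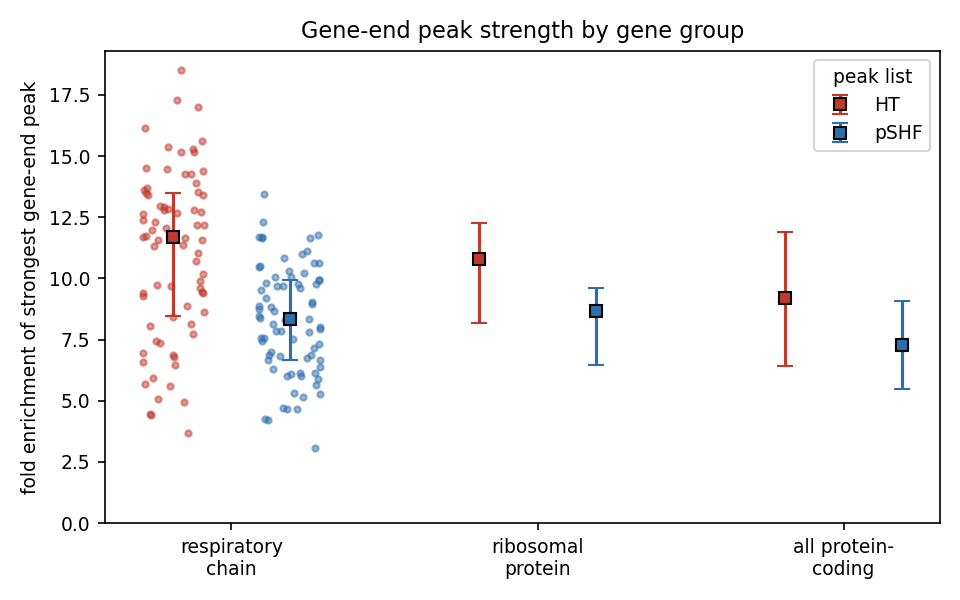
Fold enrichment of the strongest gene-end peak of each gene (vertical axis) for respiratory chain genes, cytosolic ribosomal protein genes and all protein-coding genes, with HT left of pSHF in each group. Squares are medians, bars quartiles and points single members; the members' medians are 11.7 in HT and 8.33 in pSHF, against 9.20 in HT and 7.28 in pSHF over all genes.

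The 73 members with a paired gene-end peak, that is a shared peak compared directly between the lists, were mostly stronger in HT, as were gene ends in general. The median log2 ratio of HT to pSHF fold was 0.44 (quartiles 0.22 to 0.68, order-statistic 95% interval of the median 0.34 to 0.51), and 65 of 73 pairs (89.0%) were higher in HT. Over all 10702 paired gene ends the median was 0.34 (quartiles 0.11 to 0.55) and 83.3% were higher in HT. Relative to that general shift the members' median was 0.10, and 45 of 73 lay above the median of all pairs. At least 1.5 times higher in HT were 24 members (32.9%), against 21.1% of all pairs. None was at least 1.5 times higher in pSHF, where the background is 1.07%. The 65 ribosomal protein pairs had a median of 0.35, with 60 higher in HT and 14 at least 1.5 times higher. The difference between the members and all pairs was smaller than the quartile range of either. Strong gene ends were strong in both lists, with a Pearson correlation of 0.74 between the log2 folds (Spearman 0.67, 73 members) against 0.78 over all pairs. The correlations run across genes of the same 2 lists and describe them only.

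**Figure D2:**
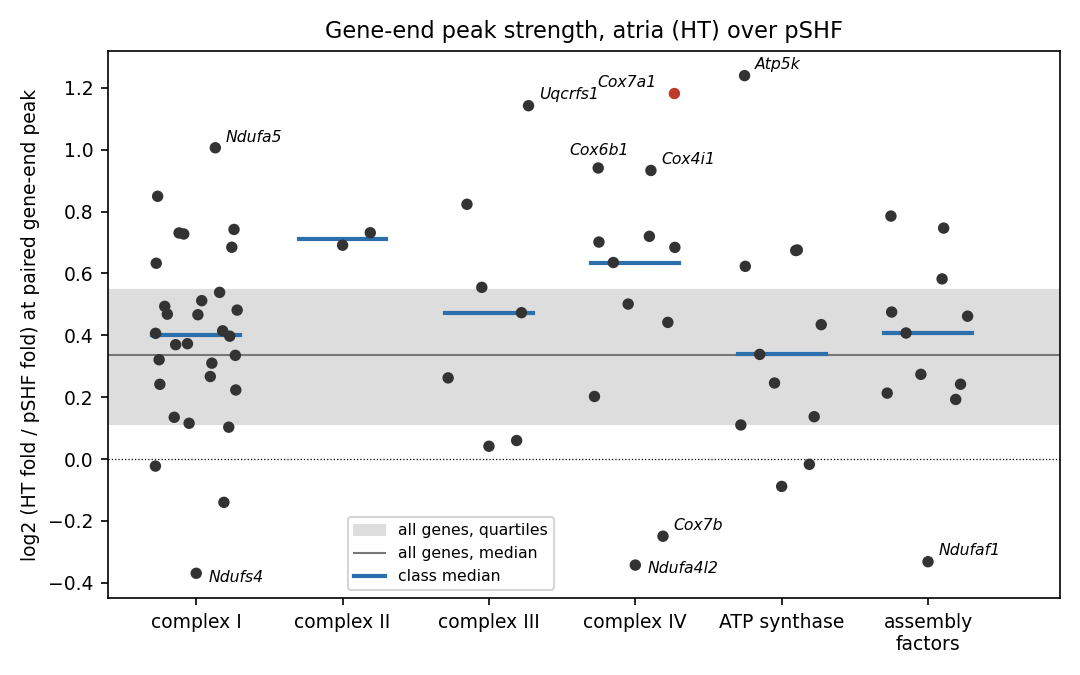
Log2 ratio of HT fold to pSHF fold (vertical axis) at the paired gene-end peak of each of 73 members, by complex (horizontal axis), with a blue line at the median of each class without Cox7a1 (red) and a grey line and band for the median (0.34) and quartiles of all 10702 pairs. The class medians of complex IV (0.64) and of the 2 paired genes of the 4 in complex II (0.71) lie highest. The 95% interval of the complex IV median, -0.25 to 0.93, includes the median of all pairs. Atp5k (1.24), Cox7a1 (1.18) and Uqcrfs1 (1.14) are the highest points.

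Complex I, the NADH dehydrogenase, had 30 paired genes with a median log2 ratio of 0.40, of which 27 were higher in HT and 18 lay above the median of all pairs. Its strongest HT gene-end peak was that of Ndufv3, a subunit of the NADH-oxidising module, with fold 15.6 in HT and 11.7 in pSHF. Its weakest was at Ndufs3, a core subunit, where the only HT gene-end peak nearest the gene was an HT-restricted one of fold 4.40 at the far end. The start-site peak of Ndufs3 was shared, with fold 9.20 in HT, where the neighbour Kbtbd4 was nearer, and 10.0 in pSHF. Among the 30 pairs of complex I the extremes were Ndufa5, an accessory subunit, and Ndufs4, an accessory subunit whose loss causes Leigh-like disease in humans and mice. Outside these pairs, the shared start peak of Ndufs6, nearer to Mrpl36 in both lists, had fold 9.25 in HT and 4.30 in pSHF. That is a larger ratio than that of Ndufa5. Ndufa5 had fold 15.2 in HT and 7.56 in pSHF (log2 ratio 1.01, pileups of 59 reads in HT and 26 in pSHF). Ndufs4 had fold 6.46 in HT and 8.35 in pSHF (log2 ratio -0.37, 15 reads in HT and 17 in pSHF). Ndufb1 was also lower in HT by fold, with 8.86 in HT and 9.77 in pSHF, but its pileup was higher in HT, with 44 reads against 37. For Ndufs4 the counting interval of the pileup ratio, 0.410 to 1.88, includes 1, whereas for Ndufa5 it was 1.41 to 3.75. These intervals are exact, cover counting error only and were computed on summit pileups recovered from the deposited fold and p-value, without scaling between the lists. Over all paired gene ends the median log2 pileup ratio was 0.44, so an interval above 1 does not by itself set a gene apart from that general shift. Besides Ndufs4, the genes given an interval in the text (Atp5k, Cox7a1, Uqcrfs1 and Ndufa5) are those with the highest fold ratios of the 73 pairs.

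Complex II, which links the citric acid cycle to the chain, had 2 paired genes. Sdhb, its iron-sulfur subunit, had fold 13.5 in HT and 8.13 in pSHF. Sdhc, a membrane anchor, had fold 13.4 in HT and 8.32 in pSHF, so both were more than 1.5 times higher in HT. With Sdha and Sdhd read across their neighbours, all 4 complex II genes had a start peak, of fold 13.3 to 13.5 in HT and 8.13 to 11.0 in pSHF. Sdha (13.3 in HT, 11.0 in pSHF) and Sdhd (13.3 in HT, 10.1 in pSHF) were less than 1.5 times higher in HT. The median of the 2 pairs thus does not stand for the whole complex. Of the complex II assembly factors, 3 were paired, all higher in HT, with a median log2 ratio of 0.21.

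Complex III had 7 paired genes, all higher in HT, with a median log2 ratio of 0.47. Among gene-end peaks nearest to its genes, Uqcrb had the strongest peak of this complex, with fold 15.4 in HT and 10.5 in pSHF. Uqcrq had the weakest on the same count, with fold 5.93 in HT and 4.27 in pSHF. Both are small subunits without a redox centre. A stronger shared peak within 1 kb of Uqcrq, nearer to Gdf9, had fold 10.1 in HT and 7.02 in pSHF. Uqcrfs1, the Rieske iron-sulfur protein, had the largest ratio of the complex, with fold 15.2 in HT and 6.88 in pSHF (log2 ratio 1.14). Its pileups were 50 reads in HT and 20 in pSHF, a ratio of 2.50 with a counting interval of 1.46 to 4.43. Uqcrc1, a core protein, was next with fold 12.2 in HT and 6.88 in pSHF. Uqcr11 and Uqcrh were nearly equal in both lists, with log2 ratios of 0.06 and 0.04.

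ATP synthase had 11 paired genes with a median log2 ratio of 0.34, the same as all pairs, and 9 were higher in HT. Atp5e, the epsilon subunit of the central stalk, had the strongest HT peak among gene-end peaks nearest to a gene of this enzyme, with fold 17.0 in HT and 10.6 in pSHF. The start peak of Atp5md, nearer to Pdcd11 in HT, was stronger still with fold 17.3 in HT and 11.6 in pSHF, and Atp5c1 (gamma) had 12.6 in HT and 11.7 in pSHF. Atp5l, subunit g of the membrane part, had the weakest gene-end peak in HT, with fold 4.94 against 5.26 at its paired pSHF peak. Its strongest pSHF gene-end peak had fold 6.01, and Atp5pb had a weaker one of 4.70. Atp5k, subunit e of the membrane part, had the largest ratio of all members, with fold 14.5 in HT and 6.14 in pSHF (log2 ratio 1.24). Its pileups were 40 reads in HT and 15 in pSHF, a ratio of 2.67 (1.44 to 5.20), and 0.542% of all paired gene ends had a log2 ratio as high. The subunits of the catalytic head showed no such gap: Atp5a1 (alpha) had fold 8.42 in HT and 8.52 in pSHF, and Atp5b (beta) had 12.8 in HT and 11.6 in pSHF. The subunits of this enzyme thus ranged from -0.09 to 1.24, where the 73 members ranged from -0.37 to 1.24.

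Complex IV without its heart isoforms had 11 paired genes with a median log2 ratio of 0.64, and 9 were higher in HT. Cox7c had its strongest peak, with fold 17.3 in HT and 11.1 in pSHF. Cox6b1, the ubiquitous subunit that faces the intermembrane space, had fold 11.7 in HT and 6.10 in pSHF (log2 ratio 0.94, 25 reads in HT and 12 in pSHF). Cox4i1, the ubiquitous form of subunit 4, had fold 9.44 in HT and 4.95 in pSHF. At the other end stood 2 genes. Cox7b had fold 4.46 in HT and 5.30 in pSHF. Ndufa4l2, a paralog of Ndufa4 induced in hypoxia, had the weakest gene-end peak of the complex in HT, with fold 3.68 in HT and 4.66 in pSHF. Ndufa4, now counted as a complex IV subunit, had a shared peak of fold 9.34 in HT, nearest Phf14, and 10.2 in pSHF.

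Tissue forms outside the heart varied in strength. Cox4i2, the lung form of subunit 4, had fold 5.08 in HT and 3.09 in pSHF, on pileups of 9 reads in HT and 7 in pSHF, and was below Cox4i1 in both lists. Cox6b2, the testis form of Cox6b1, had fold 7.72 in HT and 6.71 in pSHF, and its pSHF value was above that of Cox6b1. The Cox6b2 peak also lies beside Fam71e2, to which its pSHF summit was nearer. Cox7b2 had only a distant HT-restricted peak of fold 7.13, 85950 bp away, and a pSHF-restricted peak of fold 5.39 inside the gene. Cox8c had no peak of its own in either list.

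Among assembly factors, Ndufaf7, a methyltransferase needed for complex I assembly, had the strongest gene-end peak of all members in both lists, with fold 18.5 in HT and 13.5 in pSHF. The 7 paired complex I assembly factors had a median log2 ratio of 0.46, with 6 higher in HT. The exception was Ndufaf1, with fold 6.95 in HT and 8.74 in pSHF (log2 ratio -0.33, 12 reads in HT and 16 in pSHF). Cox7a2l, which takes part in joining complexes III and IV, had fold 12.2 in HT and 9.20 in pSHF.

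The 3 heart isoforms differed from each other. Cox7a1 (chr7:30184171-30186030) had a shared peak over its start site, with fold 12.0 in HT and 5.28 in pSHF, a log2 ratio of 1.18. Its pileups were 34 reads in HT and 12 in pSHF, a ratio of 2.83 (1.43 to 6.01), and 0.710% of all paired gene ends had a log2 ratio as high. Cox7a2, its ubiquitous partner, had a start-site peak of fold 13.7 in HT and 10.7 in pSHF. The heart form was thus close to the partner's level in HT and below it in pSHF. A pSHF-restricted peak of fold 3.60 lay 2800 bp before the Cox7a1 start.

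Cox6a2 (chr7:128205435-128206366) had 1 peak over both lists, an HT-restricted one of fold 5.80, 2044 bp from the gene, with a summit pileup of 10 reads. Cox6a1, its partner, had a shared start peak of fold 11.0 in HT and 7.80 in pSHF, and an HT-restricted peak of fold 5.10 inside the gene. Cox8b (chr7:140898942-140900446) had no gene-end peak. It had a shared peak of fold 8.06 in HT, 8301 bp away, and 6.25 in pSHF, 8213 bp away, and a pSHF-restricted peak of fold 4.42 at 2964 bp. Cox8a, its partner, had a shared start peak of fold 14.3 in HT and 10.5 in pSHF. Of the 3 heart isoforms only Cox7a1 therefore had a peak at its start or end in either list, and all 3 partners had one in both. The restricted peaks of the heart isoforms numbered 1 in HT and 2 in pSHF, and both pSHF ones fell below −log10 q of 5.

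**Figure D3:**
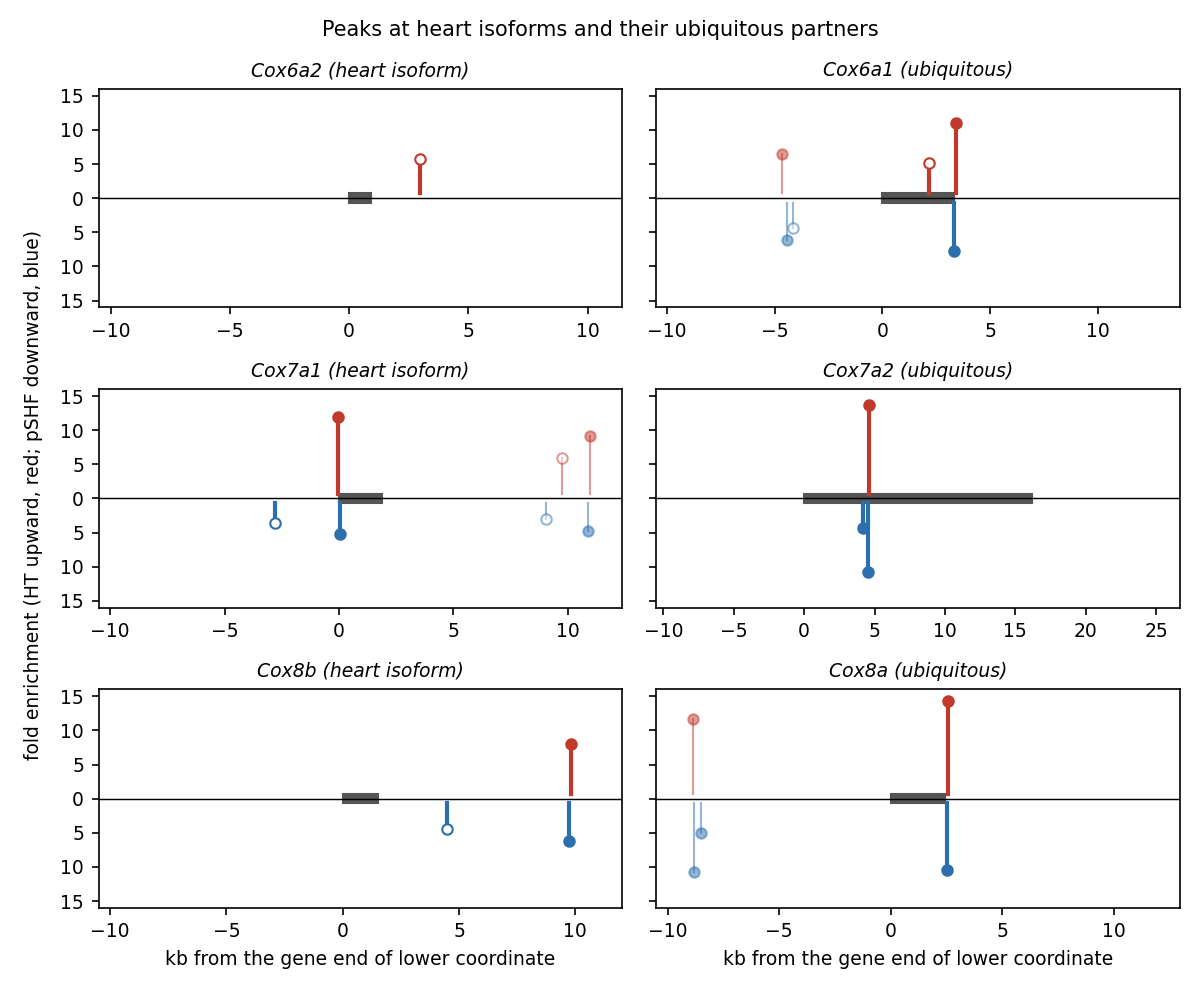
Fold enrichment of each peak (vertical axis, HT upward in red, pSHF downward in blue) against its distance in kb from the gene end of lower coordinate, for 3 heart isoforms (left) and their ubiquitous partners (right). Grey bars are gene bodies, filled circles are shared and empty circles restricted peaks, and pale stems belong to a neighbouring gene; Cox7a1 has a start peak of fold 12.0 in HT and 5.28 in pSHF, while Cox6a2 and Cox8b have none.

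A smaller share of the members' peaks than of all peaks was restricted to 1 tissue. Of the members' peaks, 37 of 140 HT peaks (26.4%, exact 95% interval 19.3 to 34.5) had no overlapping pSHF peak, and 22 of 136 pSHF peaks (16.2%, 10.4 to 23.5) had no overlapping HT peak. Over all peaks near genes the shares were 43.7% in HT and 31.8% in pSHF, and at ribosomal protein genes 19.7% in HT and 15.4% in pSHF. A restricted peak is one that the other list did not call, which does not show that the site was closed there. Most of the members' peaks sit at gene ends, where few were restricted: 6 of 85 in HT (7.06%) and 6 of 92 in pSHF (6.52%), against 13.7% in HT and 11.3% in pSHF over all gene-end peaks. Away from gene ends the HT shares were close to those of all genes, with 9 of 17 inside genes (52.9% against 58.4%) and 22 of 38 outside (57.9% against 55.5%). In pSHF they were 4 of 16 inside (25.0% against 44.3%) and 12 of 28 outside (42.9% against 44.4%). Restricted peaks were weak, with a median fold of 4.73 in HT and 4.20 in pSHF, where shared peaks had 9.69 in HT and 6.94 in pSHF. With peaks of −log10 q of at least 5 alone, the members' restricted peaks numbered 30 in HT and 7 in pSHF, and those of all genes 12734 in HT and 3628 in pSHF, where all deposited peaks gave 19848 in HT and 12839 in pSHF. With 50% reciprocal overlap needed to share a peak, the members had 52 restricted peaks in HT and 48 in pSHF, and all genes 26196 in HT and 21168 in pSHF.

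By gene, 22 members (22%) had more HT-restricted than pSHF-restricted peaks and 13 (13%) had more pSHF-restricted ones. Over all genes, 29.3% had more HT-restricted and 15.0% more pSHF-restricted peaks. Another 4 members had equal numbers and 61 had none. The 37 complex I subunits held 21 of 60 HT peaks that were restricted (35%) and 6 of 48 pSHF peaks (12.5%), while the other 63 members held 16 of 80 in HT (20%) and 16 of 88 in pSHF (18.2%). This division was made after the counts were seen and both complex I shares lie below those of all genes. Complex III had 0 HT-restricted and 1 pSHF-restricted peak, and ATP synthase had 4 in HT and 2 in pSHF.

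**Figure D4:**
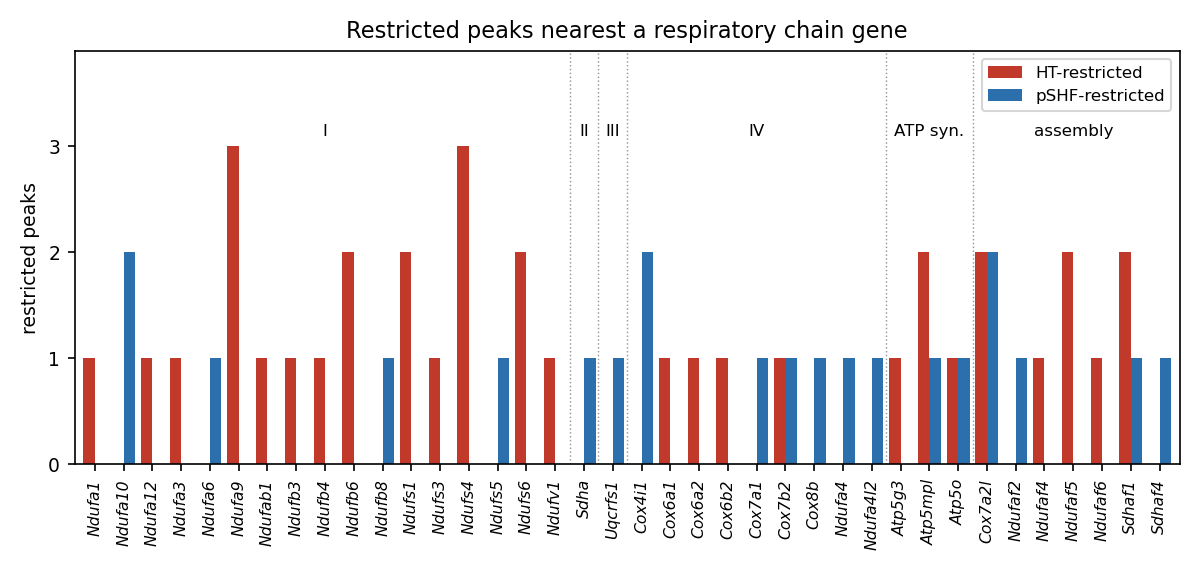
Number of HT-restricted (red, left) and pSHF-restricted (blue, right) peaks (vertical axis) for members with at least 1 (1 gene is not shown), grouped by complex along the horizontal axis. Ndufa9 and Ndufs4 have the tallest bars, with 3 in HT and 0 in pSHF, and no gene has more than 2 in pSHF.

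In 8 members the numbers differed by at least 2. The share of all genes with such a difference was not counted, so these members are listed without a background. Over all genes, more leaned to HT (29.3%) than to pSHF (15.0%) by any difference. Ndufa9 and Ndufs4 each had 3 peaks restricted to HT and 0 to pSHF, and Ndufs1, Ndufs6, Ndufb6 and Ndufaf5 each had 2 in HT and 0 in pSHF. Ndufa10 and Cox4i1 had 0 in HT and 2 in pSHF. Ndufs4, whose start peak was lower in HT, thus held 3 weak HT-restricted peaks of fold 4.28 to 4.73 in the same gene. The strongest HT-restricted peak, of fold 12.4 (24 reads, −log10 q 22.1), lay 28308 bp outside Ndufa12 at chr10:94249571-94249887. The strongest pSHF-restricted peak, of fold 8.54 (15 reads, −log10 q 11.5), lay 55491 bp outside Uqcrfs1 at chr13:30484488-30485031. Both are distant from the gene that names them, and the nearest gene need not be the one such a site acts on.

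The promoter windows held the NRF1, YY1 and ERR motifs at higher shares than promoters overlapping an HT peak in general, and the ETS and SP1 motifs at lower ones. RefSeq promoter windows matched 82 members (87 windows), of which 84 (96.6%) overlapped an HT peak and 83 (95.4%) a pSHF peak, against 55.6% in HT and 54.8% in pSHF of all 21045 windows. The NRF1 motif, named for nuclear respiratory factor 1, occurred in 34 member windows (39.1%), against 18.8% of windows overlapping an HT peak, 11.2% of all windows and 16.4% of ribosomal protein windows. The YY1 motif was in 12 (13.8%), against 5.27% of windows overlapping an HT peak, 3.14% of all and 11.9% of ribosomal protein windows. The ERR motif, of the estrogen-related receptors, was in 8 (9.20%), against 2.60% of windows overlapping an HT peak, 4.06% of all and 7.46% of ribosomal protein windows. For YY1 and ERR the members were thus close to ribosomal protein genes. The ETS motif was in 5 (5.75%), against 8.61% of those overlapping an HT peak, 5.20% of all and 16.4% of ribosomal protein windows. The CREB motif was in 4 (4.60%), against 3.49% of those overlapping an HT peak, 2.26% of all and 7.46% of ribosomal protein windows. The SP1 motif was in 40 (46.0%), against 69.9% of windows overlapping an HT peak, 46.7% of all and 61.2% of ribosomal protein windows. MEF2, the motif of a muscle factor, was in 0 member windows, against 1.30% of those overlapping an HT peak and 2.61% of all. The members' median GC content was 58.7%, against 62.3% of windows overlapping an HT peak and 56.7% of all. Motifs could overlap each other, a match describes letters alone, and a window with no match says nothing of the factor.

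**Figure D5:**
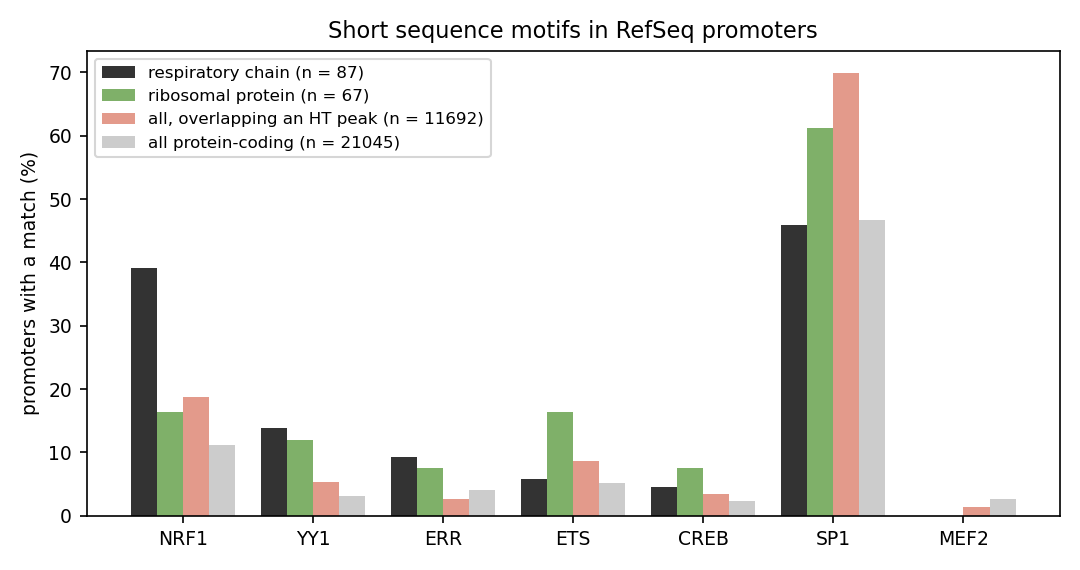
Share of 300-base promoter windows (vertical axis, percent) holding a match to each of 7 motifs (horizontal axis), for respiratory chain genes, ribosomal protein genes, all windows overlapping an HT peak, and all windows. NRF1 is found in 39.1% of respiratory chain windows against 18.8% of windows overlapping an HT peak, and SP1 in 46.0% against 69.9%.

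Genes that work with the chain but lie outside the symbol rule had similar gene-end ratios. The 29 genes of cytochrome c and further assembly factors had a median log2 ratio of 0.43 over 23 pairs (22 higher in HT), and the 14 citric acid cycle genes had 0.31 over 11 pairs (11 higher). The 15 transcriptional regulators had 0.46 over 11 pairs (10 higher), and 11 genes of muscle energy supply had 0.51 over 6 pairs (5 higher). Restricted peaks of assembly genes were 15 of 47 in HT and 8 of 44 in pSHF, and those of the citric acid cycle 15 of 36 in HT and 8 of 33 in pSHF. Regulators had 31 of 65 in HT and 24 of 61 in pSHF, and muscle energy supply 17 of 32 in HT and 4 of 19 in pSHF, where all genes had 43.7% in HT and 31.8% in pSHF. Mb, the oxygen store myoglobin, had 6 restricted peaks in HT and 0 in pSHF, and Slc25a4, the heart and muscle ADP/ATP carrier, had 3 in HT and 0 in pSHF. Suclg2, a succinyl-CoA ligase subunit, had 8 (of 10 peaks) in HT and 2 (of 5) in pSHF. Nubpl, a complex I assembly factor, had 8 (of 9) in HT and 4 (of 5) in pSHF, so most of its peaks were restricted in both lists. Ppargc1b, a coactivator of respiratory genes, had 6 in HT and 2 in pSHF, its relative Ppargc1a had 10 in HT and 8 in pSHF, and Cox10 had 4 in HT and 2 in pSHF. Esrrb, a member of the estrogen-related receptors, had 0 in HT and 2 in pSHF. Mb and the genes after it were named because their restricted counts differed by at least 2. The share of all genes with such a difference was not counted, so they too are listed without a background.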

How the data were processed

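The 3 HT and 3 pSHF samples were represented by 1 deposited narrowPeak list per tissue. The submitters' processing notes name Bowtie2 2.3.2, SAMtools 1.5, Picard, MACS2 2.1.1 and mm10, with the role of each and any pooling of samples not given in the sources used here. Each deposited line gives the authors' score, a fold enrichment (ratio over the caller's background), a −log10 p-value, a −log10 q-value and the summit offset. Read totals are not in the lists, so a background and summit pileup were recovered from the deposited fold and p-value; a whole pileup fitted within 0.01 at 100% of peaks.

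Lines with equal intervals (60223 HT and 58887 pSHF lines) were merged, keeping the strongest summit. Peaks overlapping the other list by 1 bp were shared, others restricted. Genes, start sites and promoters came from RefSeq tables of GRCm38.p6, which shares its coordinates with mm10. A gene-end peak has its summit within 1 kb of either end of its nearest gene, and a paired one is the strongest shared HT gene-end peak with the strongest pSHF peak overlapping it. Shares carry Clopper-Pearson 95% intervals over peaks. Python 3.11.15, pandas 2.3.3, numpy 2.4.6, scipy 1.17.1 and matplotlib 3.10.9 were used, and the code was tested on simulated data.

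Named genes are the isoforms and their partners, the strongest and weakest gene-end peak of each complex, members without such a peak in 1 or both lists, restricted counts differing by at least 2, the 5 highest and 5 lowest ratios, and the strongest restricted peaks. Ndufaf7, Atp5c1, Atp5md, Uqcrc1, Uqcr11, Uqcrh, Atp5a1, Atp5b and Cox7a2l were added after their values were seen. Results for 1 member are not reported here, though counts over all members include it. The members and lists were chosen with earlier results of these data known. Alternatives covered the threshold, overlap, distance, window, merging and scaling.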

Additional observations from a re-analysis of the deposited data

How the results depend on the processing

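No paired analysis was possible because each tissue has 1 peak list and no column per replicate, and for the same reason leaving out replicates was not run. Over 39 alternative values of the 5 main results, 31 stayed within the limits set (counts within 1.5 times, the median log2 ratio within its interval). With peaks of −log10 q of at least 5, restricted peaks of the members numbered 30 in HT and 7 in pSHF, and with 50% reciprocal overlap 52 in HT and 48 in pSHF, against 37 in HT and 22 in pSHF as reported. Counting genes within 10 kb gave 23 HT-restricted and 14 pSHF-restricted peaks, since fewer peaks are then assigned. The median log2 HT/pSHF ratio of 0.44 was 0.58 with summit pileup in place of fold (all paired gene ends 0.44, where fold gave 0.34) and 0.10 when centred on all paired gene ends. Its other alternatives ran from 0.38 (first summit line of each interval) to 0.45 (structural subunits only), with 0.41 at gene starts only. The first-summit and gene-start values have no counterpart over all pairs here. Requiring in addition a fold of at least the list's median, an alternative chosen after seeing the data, left 9 HT-restricted and 4 pSHF-restricted peaks. Counting any summit within 1 kb, also chosen after seeing the data, gave 89 members in HT and 89 in pSHF, against 59.2% of all genes in HT and 58.5% in pSHF. For the heart isoforms, settings likewise chosen after seeing the data kept 1 HT-restricted peak, and the 2 pSHF-restricted peaks became 0 at −log10 q of at least 5. Median pileups of 12 reads in HT and 11 in pSHF limit the ratio at any single gene.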
